A study of Homo sapiens with 2 samples.

Results

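The genes described here are 44 targets and regulators of the transcription factor NRF2 that serve antioxidant defence and detoxification, of 59125 rows counted in each library. They were selected by name from a list drawn up with earlier ratios of shUSP12 over shCON from these same libraries in view, so their ratios are a description and are not independent evidence of a direction. All 44 names were found, and 43 had a mean of at least 1 count per 1000000 (CPM) over both libraries and entered the counts and medians below. The exception, CBR3, had 8 counts in shCON and 4 in shUSP12.

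NRF2, encoded by NFE2L2, is held at low levels by KEAP1, an adaptor that presents it to a CUL3 ubiquitin ligase. Oxidants and electrophiles modify KEAP1, whereupon NRF2 accumulates, pairs with a small MAF protein such as MAFG and binds antioxidant response elements in its target genes. The products of these targets make glutathione and thioredoxin-based reducing power, supply NADPH, store iron, reduce reactive carbonyls and export conjugates. Loss of KEAP1 function is common in lung adenocarcinoma, and H1944 is described among the lines that carry a KEAP1 mutation, a feature the counts do not show.

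H1944 is an established human lung adenocarcinoma cell line. One culture carried a control hairpin (shCON) and the other a hairpin against the deubiquitinase USP12 (shUSP12), both delivered with a lentiviral vector, and 1 library was sequenced from each. The methods list a pair of USP12 target sequences and the labels do not say which was used, the count column of shCON is headed SHRFP although the control hairpin of the methods targets GFP, and whether the cells were a pool or a clone is not stated. With 1 library per group no difference has a replicate check, no p-value was computed, and each statement compares these libraries and not the conditions.

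The shCON and shUSP12 libraries held 18249112 and 17475359 counts. USP12 had 711 counts (40.8 CPM) in shCON and 219 (11.97 CPM) in shUSP12, 29.3% of the shCON level. The libraries also differed outside the knockdown, since 119 rows went from 3 counts or fewer in shCON to 50 or more in shUSP12, against 1 row the other way. Of the 119 rows, 7 were annotated on chromosome Y, and these counts do not settle whether both libraries came from the same cells, which bears on every ratio given here. Of 12 epithelial and lung adenocarcinoma markers, 9 exceeded 3 counts in the shCON library and 10 in the shUSP12 library. Their summed level was 7260 CPM in shCON and 6271 in shUSP12, beside a sum over all rows at 91.2% of shCON. Of the 9 markers that were tested, 6 were higher in shUSP12 by 1.5-fold or more and 0 were lower. KRT19 had 32 counts in shCON and 4452 in shUSP12, EPCAM had 115 and 1566, and the lung lineage factor NKX2-1 had 0 and 312. KRT8 and KRT18, the most abundant of these markers in shCON, were lower in shUSP12, with 85596 and 62180 counts and with 24132 and 18096, log2 ratios of −0.53 and −0.49. The surfactant gene SFTPB had 0 counts in both, and SFTPC had 0 and 2. Fibroblast markers summed to 195.6 CPM in shCON and 133.2 in shUSP12, with more than 3 counts for 8 and 9 of 10, and of the 7 tested 1 was at least 1.5-fold higher and 3 lower. Endothelial markers summed to 2.75 and 5.63 CPM, with more than 3 counts for 4 and 6 of 8, and immune markers to 6.08 and 6.01 CPM, with more than 3 counts for 2 and 4 of 12 and CD3E, CD3D, MS4A1 and CD68 at 0 in both. The part of these differences in the ratios below was not tested, and fewer cells of a type cannot be told apart from less RNA per cell.

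Before the levels are given, the promoters of the genes are shown, because NRF2 and its partner read a short sequence there. Promoter sequences from RefSeq (GRCh38.p14), each from 250 bases before to 50 bases after a gene start, matched 33 of the 44 genes. The motif TGACNNNGC, the core of the antioxidant response element, was searched on both strands and was present for 11 of these 33 (33.3%), whereas 16.1% of all 27305 genes with a promoter entry held it, or 13.3% of all 35116 promoters. TRIM16L, HMOX1, ABCC3, PRDX1, ABCC1, FTH1, GSR, CBR3, AKR1B10, SLC7A11 and ALDH3A1 were not matched. The windows below are those of the 4 genes at least 1.5-fold lower in shUSP12 that held the motif before the start, together with TXNRD1, which had the most counts among the genes with the motif. Each is written 5′ to 3′ along the gene, with the motif, or its reverse complement, in capitals.
GCLM, chr1:93909436-93909484, minus strand: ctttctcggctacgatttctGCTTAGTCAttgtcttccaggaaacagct
GPX2, chr14:64942839-64942887, minus strand: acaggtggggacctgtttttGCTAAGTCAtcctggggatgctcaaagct
PGD, chr1:10398843-10398891, plus strand: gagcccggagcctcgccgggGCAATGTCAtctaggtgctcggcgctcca
ME1, chr6:83431160-83431208, minus strand: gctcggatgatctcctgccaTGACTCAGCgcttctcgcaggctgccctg
TXNRD1, chr12:104215660-104215708, plus strand: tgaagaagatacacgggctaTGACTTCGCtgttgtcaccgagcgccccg

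Counted back from the RefSeq start, the motif shown lay 34 to 26 bases upstream in GCLM, 122 to 114 in GPX2, 201 to 193 in PGD, 137 to 129 in ME1 and 99 to 91 in TXNRD1. In GENCODE release 44 the PGD window is in an intron of a longer transcript, the GCLM window touches a first exon, and the other 3 lie outside the genes. ME1 also held a match after the start, not shown. TXNRD1 also held a match that reached the start and another 102 to 94 bases before a different RefSeq start, neither shown. The 6 genes that were at least 1.5-fold lower in shUSP12 and had a promoter entry included 4 with the motif, and the other 27 matched genes included 7. ALDH3A1 and TRIM16L, also at least 1.5-fold lower, had no promoter entry. The median log2 ratio was −0.48 for tested genes with the motif and −0.33 for those without. Since the list was drawn up with ratios of these libraries in view, nothing is read from these shares and medians. The ME1 motif shown also holds the letters TGACTCA, which AP-1 factors read. A match of letters is a description of the window and not a site of binding.

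Most of the NRF2 genes were lower in shUSP12 than in shCON, by small amounts. Their median log2 ratio was −0.35 (quartiles −0.50 and −0.15), against −0.01 (quartiles −0.26 and 0.26) over all 14612 rows that averaged 1 CPM or more. The ratio was below 0 for 39 of the 43 tested genes (90.7%), beside 51.1% of all rows. The 95% counting interval, which covers counting error only, lay below 0 for 33 genes (76.7%), beside 29.1% of all rows, above 0 for 4 (9.30%), beside 27.1%, and included 0 for 6. At least 1.5-fold lower were 8 genes (18.6%), beside 9.11% of all rows, and at least 1.5-fold higher were 0, beside 11.9%. A single gene, GCLM, was at least 2-fold lower (2.33%), beside 3.01% of all rows, and 0 were at least 2-fold higher, beside 6.48%. Since the list was drawn up with these ratios in view, nothing is read from the distance between the shares.

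These genes are abundant, and abundant rows were lower in shUSP12 more often than all rows were. For the 2114 rows that averaged 100 CPM or more, the median log2 ratio was −0.12 (quartiles −0.28 and 0.05). Of the NRF2 genes 36 were that abundant, with a median of −0.40. Their ratio was below 0 for 32 (88.9%), beside 69.1% of abundant rows, their interval was below 0 for 31 (86.1%), beside 57.1%, and above 0 for 4 (11.1%), beside 22.7%. All 8 genes past 1.5-fold were in this group (22.2%), beside 5.91% of abundant rows lower and 2.7% higher. With scaling to total counts alone, in place of the TMM factors used elsewhere, the median over all rows was 0.121 and that of the NRF2 genes was −0.22, and GCLM was the only member at least 1.5-fold lower, beside 6.2% of 14627 rows.

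**Figure D1:**
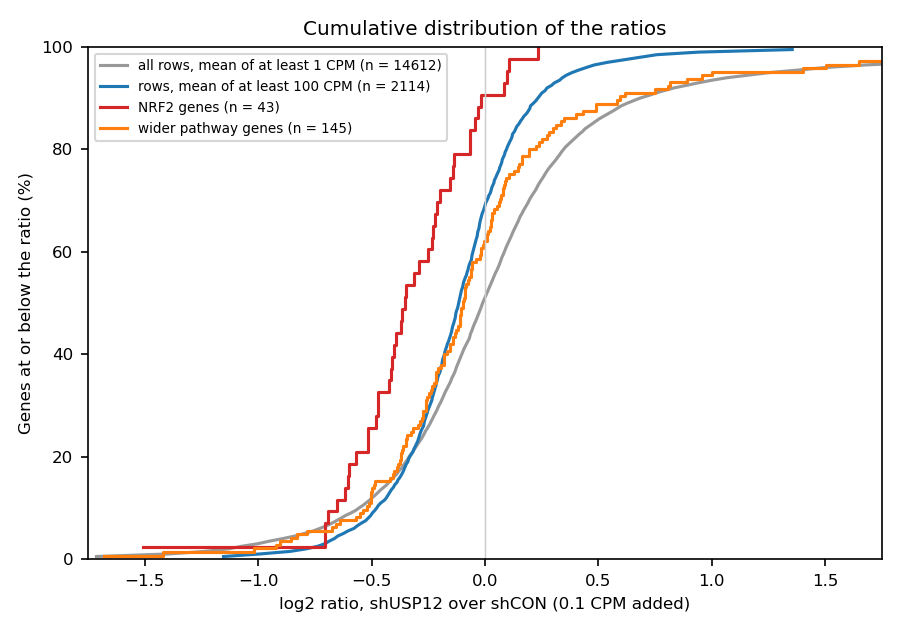
Cumulative share of genes (vertical axis, %) at or below each log2 ratio of shUSP12 over shCON (horizontal axis) for rows averaging 1 CPM or more, for rows averaging 100 CPM or more, for the NRF2 genes and for other genes of the pathway. The curve of the 43 NRF2 genes lies to the left of the curve of abundant rows over most of its range and ends at 0.23, whereas the curve of the 145 other pathway genes runs close to that of abundant rows below 0.

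In all, the 44 genes took 613088 counts in shCON, or 3.36% of the library (95% exact binomial interval 3.35 to 3.37), and 478130 counts in shUSP12, or 2.74% (2.73 to 2.74). Their summed level was 35174 CPM in shCON and 26132 CPM in shUSP12, or 74.3% of shCON. Without FTL, the member with the most counts, the sum was 77.4% of shCON. With the TMM factors the sum over all rows came to 91.2% of shCON, which is the baseline for each summed level given here. The genes were deeply sampled, with 38 of 44 above 1000 counts in both libraries, and 10 were among the 100 most abundant rows of each library.

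**Figure D2:**
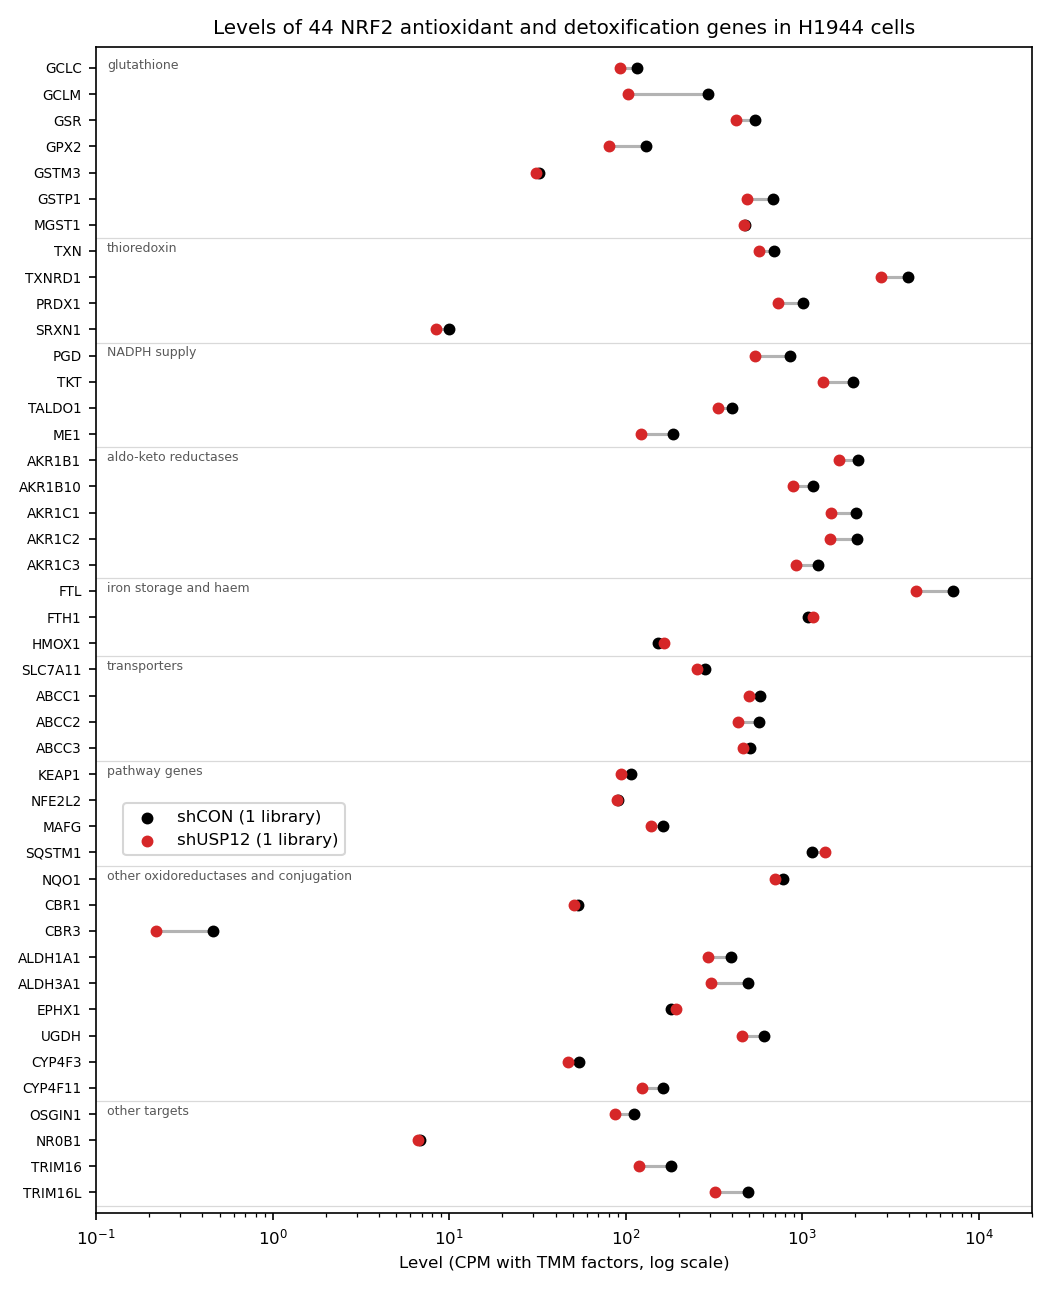
Level of each of the 44 genes in shCON (black) and shUSP12 (red), in CPM on a log scale, grouped by role, with a line joining the values of 1 library per group. FTL sits furthest to the right at 7135 and 4420 CPM, GCLM has the longest line among genes above 1 CPM, and SQSTM1, FTH1, HMOX1 and EPHX1 have the red point to the right of the black one.

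**Figure D3:**
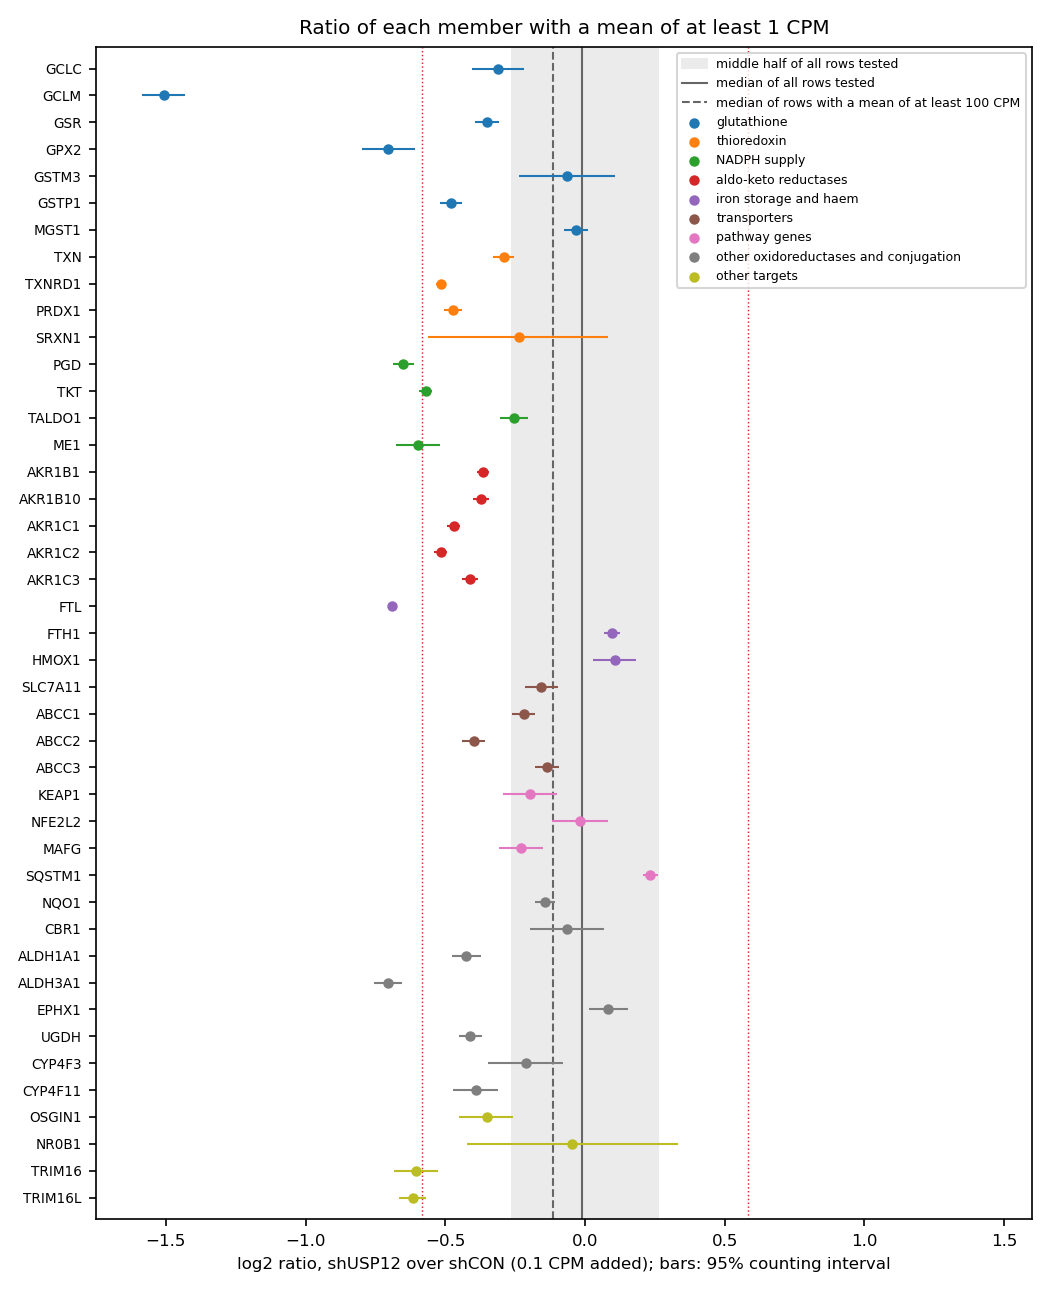
Log2 ratio of shUSP12 over shCON (horizontal axis) for the 43 tested genes with the 95% counting interval, the quartile range and median of all rows (grey band and solid line), the median of abundant rows (dashed line) and 1.5-fold in each direction (dotted lines). GCLM stands alone at −1.51, and 4 intervals lie above 0.

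Glutamate-cysteine ligase joins glutamate and cysteine as a step in the making of glutathione. Its catalytic subunit is encoded by GCLC, and its modifier subunit, which raises the enzyme's affinity for glutamate, by GCLM. GCLM (ENSG00000023909; chromosome 1, 93885199 to 93909456, GRCh38) was counted 5127 times in shCON, a level of 294.1 CPM (286.2 to 302.3), and 1891 times in shUSP12, a level of 103.4 CPM (98.7 to 108.1). Its level was 2.85-fold lower in shUSP12, a log2 ratio of −1.51 (−1.59 to −1.43), the lowest of the 43 tested genes, and it was −1.38 with scaling to total counts alone. None of its 100-base windows occurred in a transcript of another gene. GCLC (ENSG00000001084; chromosome 6, 53497341 to 53616970) had 2009 counts (115.3 CPM) in shCON and 1699 (92.9 CPM) in shUSP12, a log2 ratio of −0.31 (−0.41 to −0.22). The subunits thus differed in size of ratio, and their intervals did not overlap.

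Glutathione peroxidases spend glutathione on peroxides, and GPX2 is the epithelial form. GPX2 (ENSG00000176153; chromosome 14, 64939152 to 64942746) had 2277 counts (130.6 CPM) in shCON and 1467 (80.2 CPM) in shUSP12 and was 1.63-fold lower, a log2 ratio of −0.70 (−0.80 to −0.61). Glutathione reductase, encoded by GSR, returns oxidised glutathione to its reduced form, and its 9410 and 7751 counts gave a log2 ratio of −0.35. The transferase GSTP1, which joins glutathione to electrophiles, had 11877 counts (681 CPM) in shCON and 8948 (489 CPM) in shUSP12, a log2 ratio of −0.48 (−0.52 to −0.44). The other transferases, GSTM3 with 562 and 564 counts and the membrane-bound MGST1 with 8297 and 8519, had log2 ratios of −0.06 and −0.03 with intervals that included 0, and both were above 0 with scaling to total counts alone, at 0.07 (−0.10 to 0.24) and 0.10 (0.06 to 0.14). All 7 glutathione genes together had a median log2 ratio of −0.35 and 74.3% of the shCON level, beside 91.2% over all rows.

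Thioredoxin, encoded by TXN, reduces disulphides and peroxiredoxins and is itself reduced by thioredoxin reductase, encoded by TXNRD1. TXN (ENSG00000136810; chromosome 9, 110243810 to 110256507) had 12076 counts (693 CPM) in shCON and 10356 (566 CPM) in shUSP12, a log2 ratio of −0.29 (−0.33 to −0.25). TXNRD1 had 69495 counts (3987 CPM) in shCON and 50982 (2786 CPM) in shUSP12, a log2 ratio of −0.52 (−0.53 to −0.50), and ranked 13th and 17th of all rows by counts. The peroxiredoxin PRDX1, which breaks down hydrogen peroxide, had 17539 counts (1006 CPM) and 13275 (726 CPM), a log2 ratio of −0.47 (−0.50 to −0.44). These 3 genes were lower in shUSP12 beyond counting error. The PRDX1 count is uncertain, since 29.8% of its exonic bases lie opposite another gene and the strand setting of the counting was not stated. SRXN1, which repairs overoxidised peroxiredoxins, had 173 and 154 counts, and its log2 ratio of −0.24 had an interval from −0.56 to 0.08. Of its 100-base windows, 90.4% also occur in a transcript of an overlapping gene, so its count is uncertain.

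Both systems draw on NADPH, which the pentose phosphate pathway and malic enzyme supply. The NADPH group had the lowest median log2 ratio of the 9 roles, −0.58, and 68.3% of the summed shCON level, beside 91.2% over all rows. With a filter at a mean of 100 CPM, other targets had a lower median, −0.61, beside −0.58 for NADPH supply. PGD (ENSG00000142657; chromosome 1, 10398592 to 10420511), which encodes 6-phosphogluconate dehydrogenase, had 14753 counts (846 CPM) in shCON and 9866 (539 CPM) in shUSP12 and was 1.57-fold lower, a log2 ratio of −0.65 (−0.69 to −0.61). ME1 (ENSG00000065833; chromosome 6, 83210402 to 83431051), the cytosolic malic enzyme, had 3233 counts (185 CPM) and 2242 (123 CPM) and was 1.51-fold lower, a log2 ratio of −0.60 (−0.68 to −0.52). TKT and TALDO1 encode transketolase and transaldolase of the non-oxidative branch. TKT had 33896 counts (1945 CPM) in shCON and 23961 (1310 CPM) in shUSP12, a log2 ratio of −0.57 (−0.59 to −0.55). TALDO1 had 6955 and 6127 counts and a log2 ratio of −0.25. A fold of 1.5 corresponds to a log2 ratio of 0.58, so that ME1 was the gene just inside this line and TKT the gene just outside it.

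Aldo-keto reductases use NADPH to reduce aldehydes and ketones, and the 5 listed here summed to 8517 CPM in shCON and 6309 CPM in shUSP12. All 5 had intervals below 0, with log2 ratios in a narrow range from −0.52 to −0.36. AKR1B1 (ENSG00000085662; chromosome 7, 134442356 to 134459284), known as aldose reductase, had 36219 counts (2078 CPM) in shCON and 29526 (1614 CPM) in shUSP12, a log2 ratio of −0.36 (−0.39 to −0.34). AKR1B10, a retinal and aldehyde reductase, had 19912 and 16149 counts and a log2 ratio of −0.37. The steroid-reducing enzymes AKR1C1, AKR1C2 and AKR1C3 lie side by side on chromosome 10 and had log2 ratios of −0.47, −0.52 and −0.41. Their counts are uncertain to the extent that 12.7%, 27.8% and 7.82% of their 100-base windows also occur in another gene's transcript, so that a read from there cannot be given to 1 gene.

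The 3 iron and haem genes did not share a direction. Ferritin, the iron store, is built from a light chain (FTL) and a heavy chain with ferroxidase activity (FTH1). FTL (ENSG00000087086; chromosome 19, 48965309 to 48966879) was counted 124371 times in shCON, a level of 7135 CPM (7096 to 7175), and 80874 times in shUSP12, a level of 4420 CPM (4390 to 4451). It was 1.61-fold lower, a log2 ratio of −0.69 (−0.70 to −0.68), and moved from the 4th to the 8th most counted row. FTH1 had 18796 counts (1078 CPM) in shCON and 21110 (1154 CPM) in shUSP12, a log2 ratio of 0.10 (0.07 to 0.13). HMOX1, the haem oxygenase that frees iron from haem, had 2669 counts (153 CPM) and 3015 (165 CPM), a log2 ratio of 0.11 (0.03 to 0.18). FTH1 and HMOX1 were thus slightly higher in shUSP12 while FTL was lower. The size for FTH1 and HMOX1 depended on the scaling, at 0.05 and 0.06 with upper quartile factors and 0.23 and 0.24 with total counts. The FTH1 count is uncertain, since 20.7% of its windows occur in other transcripts and 63.2% of its exonic bases lie opposite a gene on the other strand, and the strand setting of the counting was not stated.

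Among transporters, SLC7A11 encodes the cystine carrier of system xc- and the ABCC genes encode pumps for glutathione conjugates and drugs. SLC7A11 (ENSG00000151012; chromosome 4, 138164097 to 138242349) had 4910 counts (282 CPM) in shCON and 4625 (253 CPM) in shUSP12, a log2 ratio of −0.16 (−0.21 to −0.10) that came to −0.02 with scaling to total counts alone. ABCC2 had 9964 counts (572 CPM) and 7932 (434 CPM), a log2 ratio of −0.40 (−0.44 to −0.36). ABCC1 with 10062 and 9071 counts and ABCC3 with 8839 and 8443 had log2 ratios of −0.22 and −0.14. With total counts these came to −0.09 (−0.13 to −0.05) and −0.004 (−0.05 to 0.04), so the interval of ABCC3 then included 0. The 4 transporters together stood at 84.8% of the shCON level, beside 91.2% over all rows.

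The genes of the pathway itself summed to 1498 CPM in shCON and 1660 CPM in shUSP12, and without SQSTM1 to 360.4 and 322 CPM. NFE2L2 (ENSG00000116044; chromosome 2, 177218667 to 177392756) had 1580 counts (90.6 CPM) in shCON and 1639 (89.6 CPM) in shUSP12, a log2 ratio of −0.02 (−0.12 to 0.08) whose interval included 0. With total counts it was 0.12 (0.01 to 0.22) and with DESeq2 size factors 0.01, so the direction for NFE2L2 depended on the scaling. KEAP1 (ENSG00000079999; chromosome 19, 10486125 to 10503558) had 1868 counts (107 CPM) and 1711 (93.5 CPM), a log2 ratio of −0.20 (−0.29 to −0.10). With total counts the ratio of KEAP1 was −0.06 (−0.16 to 0.03), an interval that included 0. The level of NRF2 protein is set largely by its degradation, which these counts do not measure. MAFG (ENSG00000197063; chromosome 17, 81918270 to 81927735) had 2833 counts (163 CPM) and 2537 (139 CPM), a log2 ratio of −0.23 (−0.31 to −0.15). SQSTM1 (ENSG00000161011; chromosome 5, 179806398 to 179838078), which encodes the autophagy receptor p62 that binds KEAP1, had 19836 counts (1138 CPM) and 24493 (1339 CPM), a log2 ratio of 0.23 (0.21 to 0.26), the highest of the 43. The median of these 4 genes was −0.11 and changed sign, to 0.03, with scaling to total counts alone. Of exonic bases, 22.4% of SQSTM1 and 24.8% of NFE2L2 lie opposite another gene, and 13.6% of NFE2L2 overlap one on the same strand. Both counts are therefore uncertain, as the strand setting of the counting was not stated.

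The other oxidoreductases and conjugating enzymes ranged from 1.63-fold lower to slightly higher. NQO1 (ENSG00000181019; chromosome 16, 69706996 to 69726668), a quinone reductase widely used as a reporter of NRF2 activity, had 13473 counts (773 CPM) in shCON and 12809 (700 CPM) in shUSP12, a log2 ratio of −0.14 (−0.18 to −0.11) that came to −0.01 with total counts. ALDH3A1 (ENSG00000108602; chromosome 17, 19737984 to 19748943), which oxidises aldehydes, had 8630 counts (495 CPM) and 5556 (304 CPM) and was 1.63-fold lower, a log2 ratio of −0.71 (−0.75 to −0.66). NQO1 and ALDH3A1 thus stood apart, with intervals that did not overlap. ALDH1A1, a retinal dehydrogenase, UGDH, which makes the glucuronate donor, and CYP4F11, a fatty acid hydroxylase, had log2 ratios of −0.42, −0.41 and −0.39. CYP4F3, a related hydroxylase, had 946 and 857 counts and a log2 ratio of −0.21, or −0.08 (−0.22 to 0.05) with total counts. The epoxide hydrolase EPHX1 had 3153 and 3505 counts and a log2 ratio of 0.08 (0.01 to 0.15). That ratio was 0.04 with upper quartile factors and 0.22 with total counts. The carbonyl reductase CBR1 had 932 and 935 counts, and its log2 ratio of −0.07, or 0.07 with total counts, had an interval that included 0. The interval of CBR3, with 8 and 4 counts, ran from −3.25 to 0.83, so its direction was not detectable at this depth. Of exonic bases, 19.35% of NQO1, 12.75% of UGDH, 18.94% of CBR1 and 71.14% of CBR3 lie opposite another gene. Of the 100-base windows of CBR1, 25.4% occur in another gene's transcript. These counts are uncertain, as the strand setting of the counting was not stated.

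Of the 4 remaining targets, OSGIN1 (ENSG00000140961; chromosome 16, 83931311 to 83966332), a growth inhibitor induced by oxidative stress, had 1943 counts (111 CPM) in shCON and 1597 (87.3 CPM) in shUSP12, a log2 ratio of −0.35 (−0.45 to −0.26). NR0B1, an orphan nuclear receptor, had 119 and 121 counts, and its log2 ratio of −0.05 (−0.42 to 0.33), or 0.09 with total counts, was not distinguishable from 0. TRIM16 (ENSG00000221926; chromosome 17, 15627960 to 15684311) had 3162 counts (181 CPM) and 2184 (119 CPM) and was 1.52-fold lower, a log2 ratio of −0.60 (−0.68 to −0.52). TRIM16L (ENSG00000108448; chromosome 17, 18722237 to 18735460) had 8556 counts (491 CPM) and 5859 (320 CPM) and was 1.53-fold lower, a log2 ratio of −0.62 (−0.66 to −0.57). TRIM16 is a ubiquitin ligase of the tripartite motif family and TRIM16L is its partial copy. Of the windows of TRIM16, 45.6% occur in another gene's transcript. Of those of TRIM16L, 100% occur in a transcript of an overlapping entry with the same name. Both counts are therefore uncertain.

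Ratios of counts between partner genes within 1 library do not depend on the scaling between libraries, and these 12 pairs were chosen after the values of their members were seen. GCLM had 2.55 counts per count of GCLC in shCON (2.42 to 2.69) and 1.11 in shUSP12 (1.04 to 1.19). FTL had 6.62 counts per count of FTH1 in shCON (6.52 to 6.72) and 3.83 in shUSP12 (3.77 to 3.89). The make-up of both pairs as counted therefore differed between the libraries by more than counting error, though the FTH1 count is uncertain as given above. TXNRD1 had 5.75 and 4.92 counts per count of TXN, and TKT had 4.87 and 3.91 per count of TALDO1. Pairs that stayed close were AKR1B10 to AKR1B1, at 0.550 and 0.547, and TRIM16 to TRIM16L, at 0.370 and 0.373. The TRIM16 and TRIM16L counts are both uncertain because of shared sequence. NFE2L2 had 0.846 counts per count of KEAP1 in shCON (0.791 to 0.905) and 0.958 in shUSP12 (0.895 to 1.03), with intervals that overlap. That overlap does not show equal ratios, and no interval was computed for the log2 change of 0.18. SLC7A11 had 0.158 and 0.211 counts per count of SLC3A2, the chain it pairs with, which itself had 31036 and 21943 counts and a log2 ratio of −0.57.

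**Figure D4:**
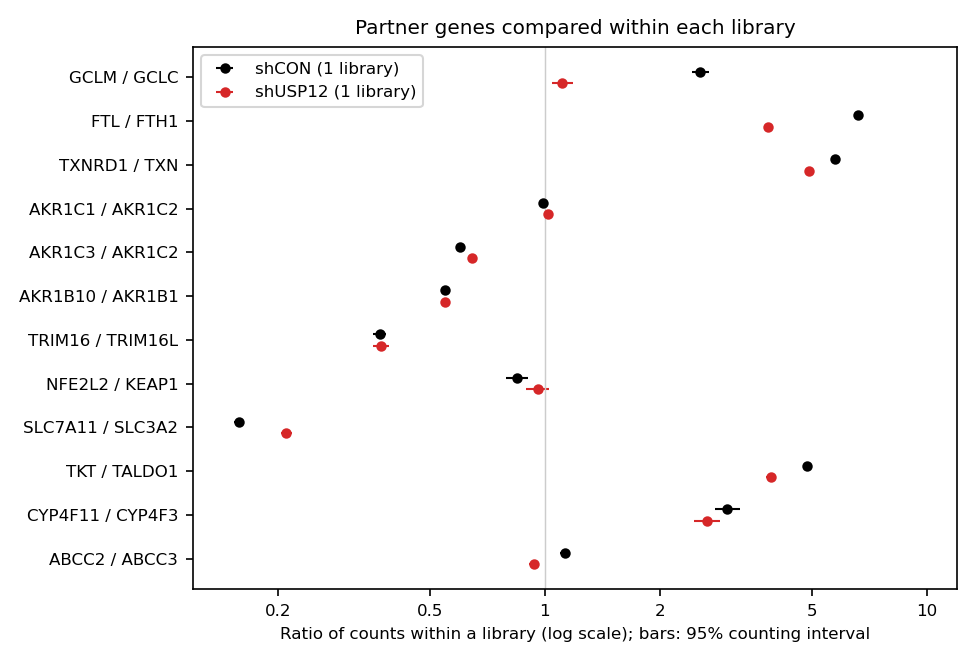
Ratio of the counts of partner genes within each library (horizontal axis, log scale) for shCON (black) and shUSP12 (red), with 95% counting intervals. GCLM to GCLC and FTL to FTH1 show the widest gaps between the libraries, from 2.55 to 1.11 and from 6.62 to 3.83, and AKR1B10 to AKR1B1 and TRIM16 to TRIM16L show the smallest.

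Levels can be compared between genes only per length. Counts were therefore divided by the length of the canonical transcript and scaled to sum to 1000000 over all rows with a length (TPM). FTL had the highest level per length in both libraries, 17450 TPM in shCON and 11941 TPM in shUSP12, and AKR1B1 the next, 3252 and 2790 TPM. The highest of the other roles in shCON were PRDX1 at 2268 TPM, GSTP1 at 1959, TKT at 1383, TRIM16L at 889, SQSTM1 at 854, NQO1 at 653 and ABCC2 at 210. The TRIM16L value is uncertain, since it divides an uncertain count by the 1176 bases of an entry typed as a pseudogene. Glutamate-cysteine ligase was far lower, with GCLM at 128 TPM in shCON and 49.8 in shUSP12 and GCLC at 64.9 and 57.7. Per canonical transcript, GCLM was thus above GCLC in shCON and below it in shUSP12, whereas with the length of all exons joined it was above GCLC in both. Neighbours such as NQO1 and ALDH3A1, at 653 and 643 TPM in shCON, lay close together. With the length of all exons joined, FTL was again first in both libraries, AKR1B1 was 6th in shCON and 5th in shUSP12, and 5 of the 44 genes moved by more than 5 places in shCON. The next after FTL was then TXN in shCON (2520 TPM) and FTH1 in shUSP12 (2349 TPM), and TXN, AKR1B10 and PGD took the place of PRDX1, AKR1B1 and TKT as the highest of their roles in shCON. Across the 43 tested genes the mean level and the log2 ratio had a Spearman correlation of −0.30, a description over genes that share both libraries.

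Other genes of the pathway, 156 further genes of glutathione, thioredoxin, NADPH, conjugation, iron, transport and NRF2 regulation, were read as context. Of 145 tested, 11 were at least 1.5-fold lower in shUSP12 (7.59%), beside 9.11% of all rows, and 15 at least 1.5-fold higher (10.3%), beside 11.9%. At least 2-fold lower were 3 (2.07%) and at least 2-fold higher were 8 (5.52%), beside 3.01% and 6.48%. The ratio was below 0 for 90 (62.1%), beside 51.1%, and the median was −0.10. The difference between these genes and the 44 selected ones was not tested. By role the medians ran from −0.29 for transporters, with 3 of 12 tested lower and 0 higher past 1.5-fold, to −0.01 for thioredoxin and peroxide genes, with 0 of 22 lower and 4 higher.

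Among these further genes, UGT1A6, a glucuronosyltransferase whose exons are shared in part with the other UGT1A genes, had 792 and 310 counts, a log2 ratio of −1.42 (−1.62 to −1.23). UGT2B7 with 283 and 156 counts, and the glutathione-cleaving GGT5 with 607 and 340 and ANPEP with 130 and 76, had log2 ratios of −0.92, −0.90 and −0.83. TXNIP, an inhibitor of thioredoxin, had 6 counts in shCON and 958 in shUSP12, a log2 ratio of 6.88 (6.12 to 8.70). CYP1B1, a target of the aryl hydrocarbon receptor, had 238 and 1197 counts, a log2 ratio of 2.25 (2.06 to 2.47), and the secreted peroxidase GPX3 had 42 and 185, a log2 ratio of 2.02 (1.58 to 2.59). The iron exporter SLC40A1, with 260 and 548 counts, was 2.01-fold higher. The small MAF gene MAFF with 285 and 582 counts, the glutathione-degrading CHAC1 with 429 and 837 and CYP2S1 with 214 and 397 had log2 ratios of 0.96, 0.89 and 0.82. Genes past 1.5-fold thus lay on both sides of 0 outside the selected list.

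The regulators NFE2L1, BACH1, CUL3 and MAFK were below 1.5-fold in either direction. NFE2L1, which encodes an NRF2-related factor, had 4657 counts in shCON and 6009 in shUSP12, a log2 ratio of 0.30 (0.24 to 0.35). BACH1, which encodes a repressor of antioxidant response elements, had 440 and 611, a log2 ratio of 0.40 (0.22 to 0.58). CUL3, the ligase scaffold that KEAP1 binds, had 1049 and 1261, a log2 ratio of 0.20 (0.08 to 0.32). The small MAF genes differed in direction, with MAFK, at 6123 and 4968 counts, at −0.37 (−0.43 to −0.32) beside MAFF at 0.96 and MAFG at −0.23.

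**Figure D5:**
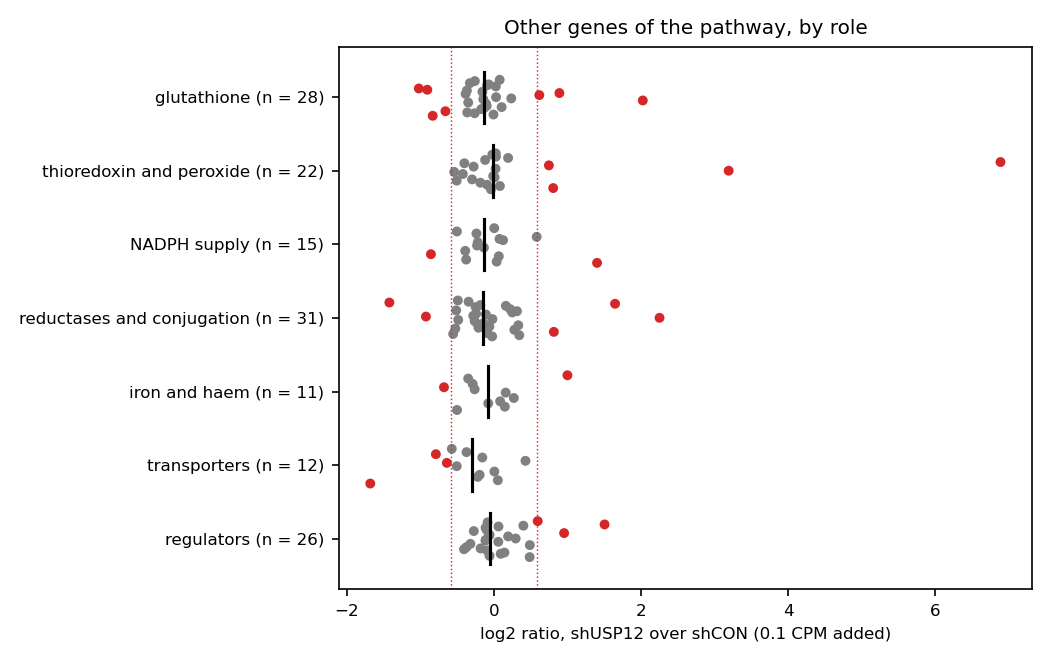
Log2 ratio of shUSP12 over shCON (horizontal axis) of 145 further genes of the pathway by role, with black bars at the medians, dotted lines at 1.5-fold and red points past it. The medians lie between −0.29 and −0.01, and the point furthest to the right is TXNIP at 6.88.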

How the data were processed

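Stranded mRNA libraries of H1944 cells were sequenced on an Illumina instrument, and the authors deposited 1 table of raw gene counts per library, aligned to GRCh38. The labels' processing notes name Trimmomatic, HISAT2 2.0.4 and HTSeq 0.6.0, whereas the methods name Seqtk and StringTie beside Hisat2. The annotation release is not given in the sources used here. From each file, 91 lines without a count were left out.

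CPM values were computed with TMM factors from edgeR 4.0.16 (R 4.3.3), 0.955 for shCON and 1.05 for shUSP12. Before ratios of shUSP12 over shCON were put on a log2 scale, 0.1 CPM was added to both values. Intervals are exact Clopper-Pearson binomial intervals at 95%, carry no pseudocount and cover counting error only. The depth floor was 3 counts (0.164 and 0.172 CPM). GENCODE release 44 on GRCh38, which held 99.1% of the Ensembl identifiers, supplied positions and lengths. Scripts ran in Python 3.11.15 with pandas 2.3.3 and SciPy 1.17.1 and were tested on simulated counts.

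The members and lists were chosen with earlier results of these data known. Full values were given for genes past 1.5-fold, the pathway genes, and the first and the highest gene per length of each role, and, of the further genes, the 12 largest ratios past 1.5-fold with a mean of at least 5 CPM plus NFE2L1, BACH1, CUL3, MAFF and MAFK. A gene that this rule names is not reported here. SLC3A2, the partner pairs, the pseudogenes and the markers singled out were chosen after their values were seen. Other scalings, pseudocounts, filters, lengths and subsets were tried as alternatives.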

Additional observations from a re-analysis of the deposited data

How the results depend on the processing

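No paired analysis was possible because shCON and shUSP12 were 1 library each, and for the same reason no replicate could be left out. A value was taken as moved when it left its counting interval, a median when it moved by more than the median distance from the middle to the end of its genes' intervals, and a count when it changed by over 1.5 times. With scaling to total counts alone the members' median was −0.2202, 1 member was at least 1.5-fold lower, and the medians were −0.2173 for glutathione, −0.2492 for thioredoxin, −0.4516 for NADPH supply, −0.2801 for aldo-keto reductases, 0.23 for iron and haem, −0.05541 for transporters, 0.02559 for pathway genes, −0.1696 for other oxidoreductases and −0.3456 for other targets. DESeq2 size factors gave −0.3895 for aldo-keto reductases. Upper quartile factors gave −0.4266 for thioredoxin, −0.6289 for NADPH supply, −0.4575 for aldo-keto reductases, 0.05259 for iron and haem and −0.2328 for transporters. The scalings set the median of all rows at 0.121, 0.0125 and −0.0553, against −0.0104 as reported. Without a filter, other oxidoreductases had a median of −0.3918 and 5 further pathway genes were at least 2-fold lower. With a mean of at least 5 CPM, 1 was 2-fold lower and 4 were 2-fold higher. The shares of all rows under these 2 settings were not computed. A filter at 100 CPM, chosen after seeing the data, left 4 further genes 1.5-fold lower, 0 higher and 0 past 2-fold in either direction. Of all rows at that filter, 5.91% were 1.5-fold lower and 2.7% higher, and 0.99% and 0.90% were past 2-fold. Nothing is read from these counts. The members' medians at that filter were −0.4718 for thioredoxin, −0.1965 for pathway genes, −0.4015 for other oxidoreductases and −0.6098 for other targets. Without genes of near-identical copies the members' median was −0.2528, and without those over 10% shared or overlapped, also chosen after seeing the data, it was −0.3526. Of 220 ratios of single members under 5 alternatives, 156 stayed inside their intervals, 64 moved and 6 changed sign: with total counts GSTM3 (0.07), MGST1 (0.10), NFE2L2 (0.12), CBR1 (0.07) and NR0B1 (0.09), and with DESeq2 size factors NFE2L2 (0.01). The depth limits CBR3, SRXN1 and NR0B1.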

Other observations

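Rows named as pseudogenes of the members can take reads from their parents. The tables held 66 such rows, of which 10 had more than 3 counts in either library, and they summed to 275 counts in shCON and 208 in shUSP12. The 4 AKR1C rows, which are not processed copies, held 187 and 104 of these counts. The 25 FTH1 pseudogene rows held 62 and 73 counts, equal to 0.330% and 0.346% of the FTH1 counts, and the 16 FTL pseudogene rows held 9 and 2. The 7 TXN pseudogene rows had 0 counts in both. AKR1C7P, in the AKR1C cluster, had 155 counts in shCON and 83 in shUSP12, a log2 ratio of −0.96 (95% counting interval −1.37 to −0.58), and AKR1C8P, typed as protein-coding in GENCODE release 44, had 18 and 9.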
